A study of Mus musculus with 37 samples.

Results

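Myog, Myf5, Myf6, Mymk and Cdh15 were followed through single fibroblasts that had been given a pool of transcription factors, Myod1 and Mef2c among them. These 5 genes were chosen by name, of 27998 gene rows in the tables, as the myogenic regulators downstream of or beside Myod1 and as genes of myoblast adhesion and fusion. The cells were mouse embryonic fibroblasts (MEFs) of the ICR background, an outbred mouse stock, infected with retroviral vectors for 48 factors and collected at day 7. Expression was measured by Drop-seq, in which a droplet pairs each cell with a bead that tags its polyadenylated RNA with a cell barcode and a molecule barcode. The 37 samples were technical replicates of a single biological replicate that received the whole pool, so that no untreated cells and no cells with separate vectors were there to compare. The groups were therefore made of cells within each library by the factor transcripts found in them: 198 cells with at least 1 count of both Myod1 and Mef2c, 154 cells with Myod1 alone, 2033 cells with Mef2c alone and 6180 cells with neither. A count of Myod1 or Mef2c does not tell the delivered transcript from the cell's own, and a cell without a count may still carry the vector. The remaining factors of the pool played no part in forming the 4 classes.

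Skeletal muscle is specified by a family of basic helix-loop-helix (bHLH) transcription factors. Myod1 and Myf5 commit cells to the lineage, myogenin (Myog) drives terminal differentiation, and Myf6 acts in committed cells and maturing fibres. These factors bind E-boxes as dimers with E proteins and act on many muscle promoters together with MEF2 proteins. Differentiating myoblasts leave the cell cycle, adhere to each other, in part through M-cadherin (Cdh15), and fuse into myotubes by way of the membrane proteins myomaker (Mymk) and myomixer (Mymx).

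The promoters of Myog and Cdh15 are shown because these genes had many counts and because they differ in matches to a general E-box and to a MEF2 motif. The windows run from 250 bases before to 50 bases after the RefSeq start on GRCm38.p6, 5′ to 3′ on the plus strand, at chr1:134289754-134290053 for Myog and chr8:122848124-122848423 for Cdh15. Capitals mark matches to the E-box CANNTG, which reads the same on both strands, and to a MEF2 motif (a pyrimidine, TA, 4 letters of A or T and TA), searched on both strands.
Myog: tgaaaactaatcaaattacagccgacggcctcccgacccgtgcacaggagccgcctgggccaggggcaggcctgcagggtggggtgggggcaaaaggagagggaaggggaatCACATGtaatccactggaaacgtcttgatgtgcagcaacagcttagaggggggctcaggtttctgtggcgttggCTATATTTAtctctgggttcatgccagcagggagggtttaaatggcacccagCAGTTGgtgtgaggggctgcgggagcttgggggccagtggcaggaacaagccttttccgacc
Cdh15: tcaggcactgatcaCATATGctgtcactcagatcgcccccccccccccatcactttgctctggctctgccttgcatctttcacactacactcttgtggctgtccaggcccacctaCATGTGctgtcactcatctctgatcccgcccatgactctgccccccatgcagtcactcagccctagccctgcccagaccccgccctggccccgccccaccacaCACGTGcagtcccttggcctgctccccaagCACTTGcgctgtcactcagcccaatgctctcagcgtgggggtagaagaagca
In the Myog window the E-boxes CACATG and CAGTTG begin at positions -138 and -12 from the start, and the MEF2 match CTATATTTA begins at -64. The Cdh15 window holds the E-boxes CATATG at -236, CATGTG at -135, CACGTG at -32 and CACTTG at -2, and has no match to the MEF2 letters. Of 32851 promoter windows of the same length, 72.3% held CANNTG and 7.70% held the MEF2 letters. The narrower E-boxes CAGCTG, in 16.3% of windows, and CACCTG or CAGGTG, in 20.2%, were found in neither the Myog nor the Cdh15 window. Of the 5 genes, 3 had an entry in the promoter table, and the window of Myf5 matched neither motif. Such a match describes the sequence and does not show binding.

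By GENCODE M21 on GRCm38, Myog (ENSMUSG00000026459) lies on chromosome 1 at 134289989 to 134292548 on the plus strand, with up to 3 exons. Mymk (ENSMUSG00000009214) lies on chromosome 2 at 27061636 to 27072179 on the minus strand, with up to 5 exons. Cdh15 (ENSMUSG00000031962) lies on chromosome 8 at 122847966 to 122867397 on the plus strand, with up to 14 exons, and overlaps the gene model Gm20388. Since no strand setting is given in the sources used here, the counts of Cdh15 are uncertain to that extent. Myf5 (ENSMUSG00000000435) and Myf6 (ENSMUSG00000035923) are neighbours on the minus strand of chromosome 10, at 107482908 to 107486134 and at 107492853 to 107494737, with 6718 bases between them.

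After removal of barcodes that occurred in more than 1 library or lay 1 base apart, 8565 of 8730 barcodes and 119803382 counts remained. Technical replicates 4 and 6 shared 59 barcodes, against at most 4 in any other pair, and were treated as 1 library, which gave 36 libraries of 70 to 548 cells and 637680 to 7921171 counts. Library names fell into 3 series, JD, PZ47-PZ48 and PZ58, and 10 libraries stood apart from the other 26 by Rps27a, at 728 to 1302 CPM (counts per 1000000 counts) against at most 15.6 CPM. Median totals per cell were 16371.5 counts in cells with both factors, 10787 with Myod1 alone, 12791 with Mef2c alone and 7531.5 with neither, so that the tests below use cells matched on total counts within each library. At least 3 fibroblast markers were found in 88.9% of cells with both factors, in 98.7% with Myod1 alone, in 98.6% with Mef2c alone and in 99.4% with neither. The progenitor markers Pax7 and Calcr held 5 and 2 counts in all cells, and at least 3 of 12 skeletal muscle markers were found in 67.2% of cells with both factors, 11.7% with Myod1 alone, 9.49% with Mef2c alone and 3.71% with neither.

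Myog, Mymk and Cdh15 were each highest in cells that held both factors and lowest in cells with neither, and Myf5 and Myf6 were nearly absent throughout. Myog, the differentiation regulator, had 438 CPM over all cells with both factors, 10.7 CPM with Myod1 alone, 12.4 CPM with Mef2c alone and 2.74 CPM with neither. Mymk, the fusion protein, had 509, 33.8, 15.2 and 4.06 CPM in the same order of classes. Cdh15, the adhesion molecule, had 158, 68.4, 7.09 and 3.51 CPM. These pooled values describe 1 culture, and counting error alone put the Myog level of cells with both factors between 420 and 457 CPM (95% exact Poisson interval).

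By library, the lowest, median and highest Myog levels were 0, 538 and 2821 CPM in the 35 libraries with cells of both factors. They were 0, 0 and 334 CPM with Myod1 alone (35 libraries), 0, 7.51 and 48.4 CPM with Mef2c alone (36 libraries) and 0, 2.33 and 28.8 CPM with neither (36 libraries). Cells with both factors had no Myog in 2 libraries, and otherwise their libraries lay mostly above those of the other classes. For Mymk the lowest, median and highest were 2.64, 560 and 2550 CPM with both, 0, 0 and 4996 CPM with Myod1 alone, 0, 5.86 and 117 CPM with Mef2c alone and 0, 2.79 and 40.3 CPM with neither. The 4996 CPM came from technical replicate 3, in which the class held 1 cell with 28 of its 82 Mymk counts, while 22 of its 35 libraries had no Mymk count. Without that library the pooled Mymk level with Myod1 alone was 22.3 CPM, against 33.8 CPM with it. For no other class or gene of these 3 did leaving out 1 library, a step chosen after seeing the data, move the pooled level by over 1.5 times. For Cdh15 the values were 0, 184 and 507 CPM with both, 0, 62.7 and 765 CPM with Myod1 alone, 0, 6.17 and 24.5 CPM with Mef2c alone and 0, 3.02 and 10.9 CPM with neither. The 765 CPM of Cdh15 came from 1 cell with 8 counts. In cells with Myod1 alone Cdh15 was thus found in most libraries, 30 of 35, and Myog in 10 of 35. The order of the classes by library median was the same for Mymk and Myog: both, Mef2c alone, neither, Myod1 alone at 0. For Cdh15 it was both, Myod1 alone, Mef2c alone, neither, and the ranges of neighbouring classes overlapped for all 3 genes.

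**Figure D1:**
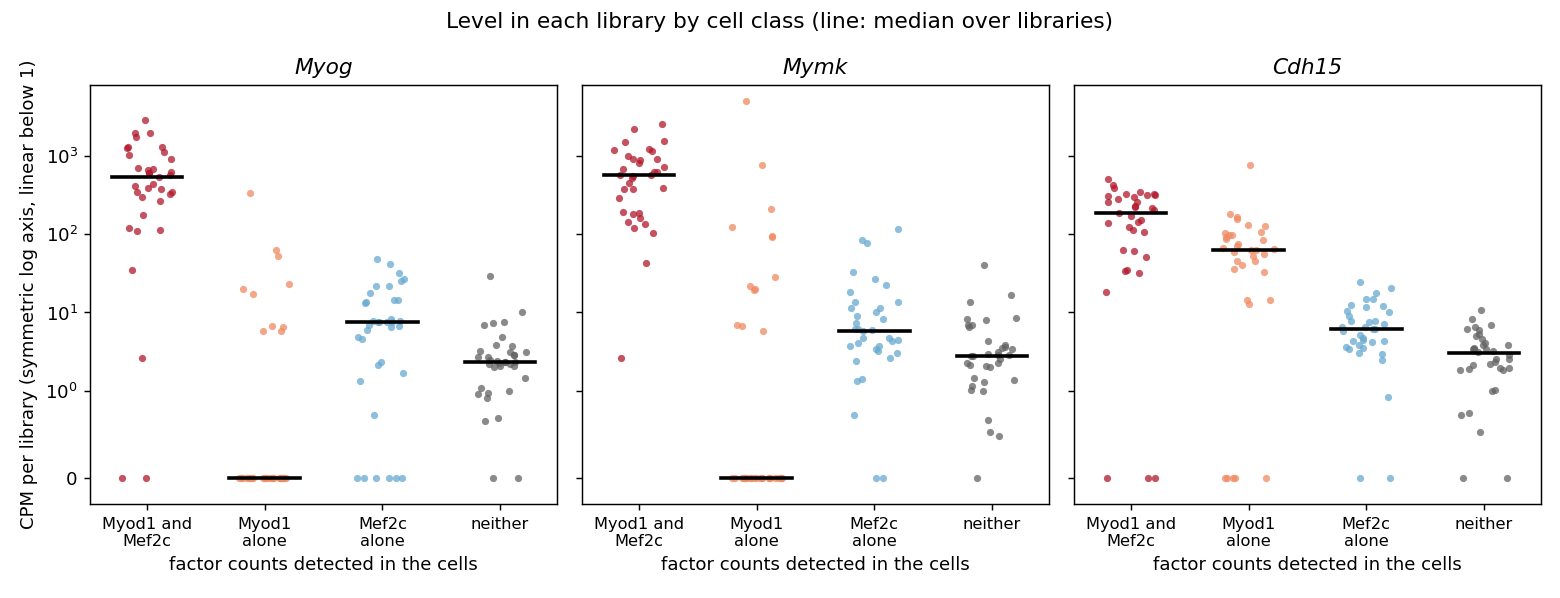
Level of Myog, Mymk and Cdh15 (CPM, symmetric log axis that is linear below 1) in each library for cells with Myod1 and Mef2c, Myod1 alone, Mef2c alone and neither; each point is a library and the line is the median over libraries. Cells with both factors have medians of 538, 560 and 184 CPM, and cells with Myod1 alone have a median of 0 for Myog and Mymk and 62.7 CPM for Cdh15.

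The 3 genes were unevenly spread over single cells. At least 1 count of Myog was found in 48.5% of cells with both factors, in 6.49% with Myod1 alone, in 4.97% with Mef2c alone and in 2.33% with neither. For Mymk the shares were 56.1, 9.09, 5.51 and 2.49%, and for Cdh15 67.2, 41.6, 6.05 and 2.56%. Thinned to 3000 counts a cell, which leaves out 2, 5, 28 and 351 shallower cells of the classes in the same order, the shares were 42.3, 4.70, 2.59 and 1.05% for Myog. They were 48.5, 8.05, 2.24 and 0.978% for Mymk and 36.7, 20.8, 2.34 and 1.03% for Cdh15, with the order of the classes kept for all 3 genes. Of the cells with neither factor, 176 held at least 3 mesothelial markers, at a median total of 8823.5 counts. Among these 176, Myog was found in 4 cells (2.27%), Mymk in 7 cells (3.98%) and Cdh15 in 2 cells. The shares of all cells with neither factor lie within the counting intervals of these 176 cells, which belong to that class. The 229 cells with neither factor but at least 3 skeletal muscle markers held Myog in 10.0%, Mymk in 12.7% and Cdh15 in 10.5%. The part of free RNA in the shares with neither factor was not tested. In cells matched on total counts the shares were 4.97% with Mef2c alone and 2.51% with neither for Myog, 5.51 and 2.46% for Mymk and 6.05 and 3.25% for Cdh15. These matched sets had near equal median totals, but mean totals of 20680.5 counts with Mef2c alone and 17949.9 with neither.

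High counts per cell were found mainly where both factors were. Of 88 cells with at least 10 counts of Myog, 69 held both factors, 0 Myod1 alone, 18 Mef2c alone and 1 neither. For Mymk the 95 such cells divided into 71, 3, 16 and 5, and for Cdh15 the 31 such cells into 27, 0, 3 and 1. The highest counts in a cell with both factors were 120 for Myog, 208 for Mymk and 30 for Cdh15. Within the smaller levels of the other classes a few cells weighed heavily: the 10 cells with the most counts held 95.1% of the Mymk counts with Myod1 alone, 51.9% of the Myog counts with Mef2c alone and 62.1% of the Mymk counts with Mef2c alone. With both factors the same share was 32.7% for Myog, 37.7% for Mymk and 26.7% for Cdh15.

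Myf5, the early determination factor, had 4 counts in 4 of 8565 cells, and Myf6 had 5 counts in 4 cells. Myf5 was found in 0 of 198 cells with both factors, which at a floor of 3 counts allows a share of cells with a count of up to 1.52%, in 0 of 154 cells with Myod1 alone, which allows up to 1.95%, in 2 cells with Mef2c alone and in 2 cells with neither. Such a limit covers counting error alone and bounds cells with a count, not cells that express the gene. Myf6 had 3 counts in 2 cells with both factors, 0 counts with Myod1 alone, 0 counts with Mef2c alone and 2 counts in 2 cells with neither. At 0.581 CPM with both factors (0.120 to 1.70 CPM by counting error) and 0.0285 CPM with neither (0.00345 to 0.103 CPM), Myf6 rested on too few counts for a test. Neither gene reached the minimum of 20 counts in any comparison, so that Myog, Mymk and Cdh15 are the 3 members tested below, and no count over them stands for all 5.

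In cells with both factors all 3 tested genes rose far above matched cells with neither. The comparison used 194 pairs of cells in 32 libraries, with median totals of 16475 counts with both factors and 16565 with neither. Myog had 2238 counts in cells with both factors and 3 counts in cells with neither, Mymk had 2599 and 17 counts, and Cdh15 had 811 and 10 counts. By library the lowest, median and highest Myog levels were 0, 488 and 2821 CPM with both factors and 0, 0 and 16.2 CPM with neither. Myog was higher with both factors in 31 of the 32 libraries and equal at 0 in the other. For Mymk the values were 2.64, 554 and 2550 CPM with both and 0, 0 and 47.4 CPM with neither, with 32 of 32 libraries higher. For Cdh15 they were 0, 194 and 507 CPM with both and 0, 0 and 47.4 CPM with neither, with 31 libraries higher and 1 lower.

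The log2 fold change, from the quasi-likelihood test of edgeR with the library as a block, was 8.31 ± 0.22 (SE) for Myog, with an adjusted p of 2.5e-35. It was 7.07 ± 0.23 for Mymk (adjusted p 1.4e-31) and 5.84 ± 0.28 for Cdh15 (adjusted p 7.7e-24), again from edgeR. Because cells with neither factor held only 3 counts of Myog, its fold is better read from the counts, as a ratio of 676 with a counting interval of 231 to 3278. The same ratio was 138 (86.3 to 238) for Mymk and 73.4 (39.7 to 154) for Cdh15. The SEs here and below are derived from the test statistic and are narrower than counting error where a cell set held few counts. All 3 tested members passed, where 15.3% of 13161 genes passed in either direction and 9.49% were higher, and Myog had the third highest log2 fold change among them (rank 3). Within the JD, PZ47-PZ48 and PZ58 series the log2 fold changes were 8.02, 9.28 and 7.41 for Myog, 6.34, 8.21 and 7.75 for Mymk and 6.49, 5.08 and 6.20 for Cdh15. In the libraries with high Rps27a and those with low Rps27a, of which 9 and 23 had enough pairs, they were 6.86 and 8.93 for Myog, 7.55 and 6.95 for Mymk and 5.39 and 6.00 for Cdh15. Every one of these subsets passed the threshold of an adjusted p under 0.05. All p-values measure the technical spread between libraries of 1 culture, and cells with both factors and cells with neither also served in further comparisons below, which therefore share cells.

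Markers of muscle moved with these genes. The summed level of the 12 skeletal muscle markers, all of which had counts in both sets, ran from 219 to 46056 CPM per library with both factors (median 14251) and from 0 to 1143 CPM with neither (median 94.2). The 8 cardiomyocyte markers, several of which embryonic skeletal muscle also expresses, had medians of 7630 CPM with both and 179 CPM with neither, and Ryr2 was at 0 in cells with neither. The 8 fibroblast markers had a median of 6159 CPM with both factors and 10474 CPM with neither. The 12 macrophage markers had medians of 27.2 CPM with both factors and 24.3 CPM with neither, with C1qa at 0 in both. The part of these cell states in the levels of Myog, Mymk and Cdh15 was not tested.

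**Figure D2:**
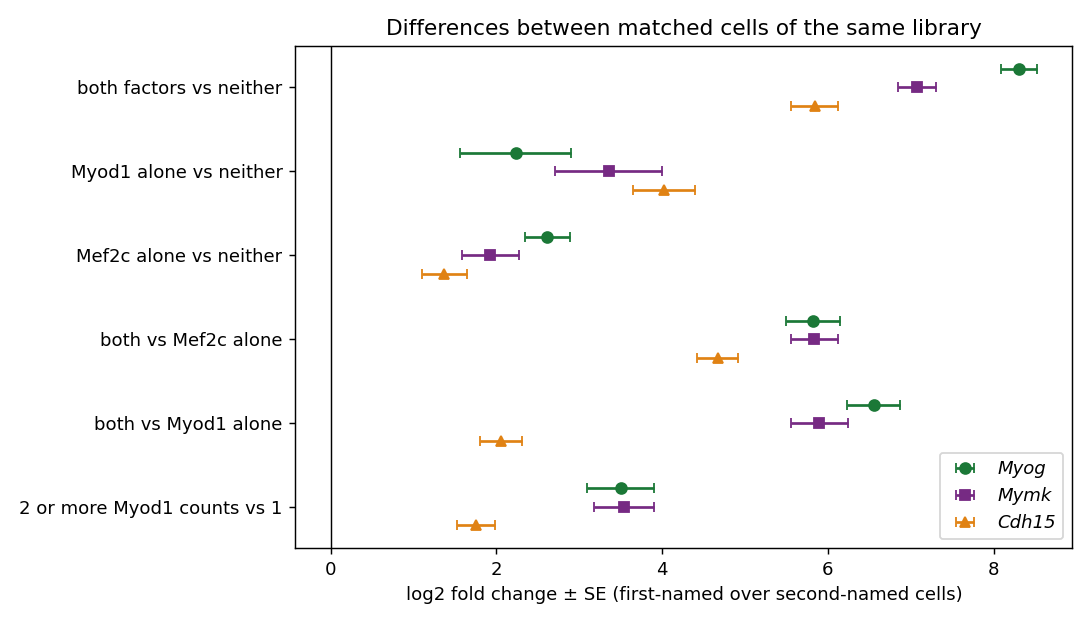
Log2 fold change (± SE) of Myog, Mymk and Cdh15 between matched cells of the same library in 6 comparisons, with the cells named first over those named second. The bars are derived from the test statistic and are narrower than counting error where a cell set held few counts. All values lie above 0, from 1.37 for Cdh15 with Mef2c alone to 8.31 for Myog with both factors; Myog with Myod1 alone, at 2.23, did not pass the threshold.

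With Myod1 alone, Cdh15 and Mymk rose against matched cells with neither factor, and Myog did not pass the test. In 136 pairs of cells from 24 libraries, with median totals of 10949 counts with Myod1 alone and 10977 with neither, Cdh15 had 143 counts with Myod1 alone and 6 with neither. By library its median was 63.5 CPM with Myod1 alone, with 1 library at 0, and 0 CPM with neither, where the highest library had 12.9 CPM. Cdh15 was higher with Myod1 alone in 23 of 24 libraries and equal in the other. The log2 fold change of Cdh15 was 4.02 ± 0.38 (adjusted p 5.5e-11, edgeR), and by p it ranked 1 of 11352 genes. By series it was 3.92 (JD), 3.79 (PZ47-PZ48) and 5.57 (PZ58), and in PZ58 the edgeR adjusted p of 0.56 missed the threshold.

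Mymk had 46 counts with Myod1 alone and 1 count with neither, a ratio of 45.7 with a counting interval of 7.81 to 1844. Its level by library was 0, 0 and 209 CPM (lowest, median, highest) with Myod1 alone and 0, 0 and 6.47 CPM with neither, with 11 libraries higher, 1 lower and 12 equal. The log2 fold change was 3.36 ± 0.65 (adjusted p 0.0013, edgeR). Within the PZ47-PZ48 series, the only series in which Mymk had enough counts for the test, it was 3.68 with an adjusted p of 0.066. Myog had 26 counts in 10 of 136 cells with Myod1 alone and 2 counts in 2 of 136 with neither, a ratio of 12.9 (3.23 to 112). Its log2 fold change was 2.23 ± 0.67 (p 0.0018, adjusted p 0.11, edgeR), with 10 libraries higher, 1 lower and 13 equal, and it passed under 3 other settings, with adjusted p-values of 0.011 without the library block, 0.013 without matching and 0.044 once the 5% deepest cells were left out. In this comparison 1.18% of 11352 genes passed in either direction, and 0.951% of the 11352 were higher. That Cdh15 passed and Myog did not does not show that they differ, and the difference between the genes was not tested. Myog, Mymk and Cdh15 entered the test mainly through the counts of the Myod1 cells.

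The shares of cells described the same contrast. Cdh15 was found in 39.7% of matched cells with Myod1 alone and in 3.68% with neither, Mymk in 8.82% and 0.735%, and Myog in 7.35% and 1.47%. Skeletal muscle markers summed to a median of 160 CPM per library with Myod1 alone (38.4 to 2000) and 68.5 CPM with neither (0 to 552), where Ckm, the muscle creatine kinase, was at 0. The part of these muscle-marked cells in the result was not tested. In all cells with Myod1 alone the share with Cdh15 was 40.6, 41.5 and 45.0% in the JD, PZ47-PZ48 and PZ58 series.

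With Mef2c alone, the levels of Myog, Mymk and Cdh15 all rose against matched cells with neither factor. In 2033 pairs from 36 libraries, with median totals of 12791 counts with Mef2c alone and 12710 with neither, Myog had 522 counts with Mef2c and 63 with neither, Mymk 639 and 127, and Cdh15 298 and 106. The lowest, median and highest library levels of Myog were 0, 7.51 and 48.4 CPM with Mef2c alone and 0, 1.55 and 7.53 CPM with neither. Its median with Mef2c alone lay near the highest library with neither, and 27 libraries were higher, 5 lower and 4 equal. Mymk had 0, 5.86 and 117 CPM with Mef2c alone and 0, 1.81 and 28.0 CPM with neither, with 28 libraries higher and 7 lower. Cdh15 had 0, 6.17 and 24.5 CPM with Mef2c alone and 0, 1.60 and 20.5 CPM with neither, with 29 libraries higher and 7 lower.

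By edgeR the log2 fold change was 2.61 ± 0.27 for Myog (adjusted p 7.2e-09), 1.93 ± 0.34 for Mymk (adjusted p 0.00026) and 1.37 ± 0.27 for Cdh15 (adjusted p 0.0014). All 3 tested members passed, where 1.87% of 16241 genes passed and 1.34% were higher. Myog passed within each series, at 1.98, 2.94 and 2.93 in JD, PZ47-PZ48 and PZ58. Mymk had log2 fold changes of 1.59, 1.85 and 2.75 in the same series and passed in none of them (adjusted p 0.18, 0.058 and 0.40, edgeR). Cdh15 had 1.58, 1.08 and 1.61 and passed in JD alone (adjusted p 0.040, 0.43 and 0.75, edgeR). Macrophage markers were also higher with Mef2c alone, at a median of 46.4 CPM per library (14.0 to 803) against 23.4 CPM with neither (9.06 to 245), and so were the 8 glial markers, at 32.1 CPM (1.42 to 411) against 9.63 CPM (1.98 to 76.4). Of 29 macrophage-marked cells with Mef2c alone, 1 held Myog, 1 Mymk and 2 Cdh15, and of 59 glia-marked ones 3 held Myog, 2 Mymk and 2 Cdh15. Skeletal muscle markers had medians of 308 CPM with Mef2c alone and 147 CPM with neither, and the part of these cell types in the result was not tested.

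The number of Mef2c counts in cells without Myod1 went with the shares of all 3 genes. In cells with 1 count (1267 cells), 2 to 4 counts (633 cells) and 5 or more counts (133 cells) of Mef2c, Myog was found in 2.60, 6.48 and 20.3%. Mymk was found in 3.31, 5.85 and 24.8% and Cdh15 in 4.26, 6.64 and 20.3% of the same cells. Median totals also differed, at 10956, 16850 and 21543 counts. Thinned to 3000 counts a cell, the Myog shares were 1.04, 3.19 and 14.3%, the Mymk shares 0.643, 2.39 and 16.5% and the Cdh15 shares 1.29, 2.71 and 10.5%. The shares at 5 or more Mef2c counts were thus the highest after thinning too. Of the 33 libraries with such cells, 14 had no Myog, 11 no Mymk and 16 no Cdh15 in them. The 10 cells with the most counts held 70.4% of their Myog, 73.4% of their Mymk and 65.6% of their Cdh15 counts.

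Set against each factor alone, cells with both were again higher in all 3 genes. Against Mef2c alone, in 194 pairs from 32 libraries (median totals 16475 with both factors and 16212 with Mef2c alone), Myog had 2238 counts with both and 42 with Mef2c alone, Mymk 2599 and 57, and Cdh15 811 and 27. The log2 fold changes were 5.82 ± 0.33 for Myog (adjusted p 2e-20), 5.84 ± 0.29 for Mymk (adjusted p 4.7e-23) and 4.67 ± 0.25 for Cdh15 (adjusted p 1.9e-21), by edgeR. All 3 were higher in 31 of 32 libraries, and all 3 passed, where 15.4% of 13212 genes passed, 9.05% higher and 6.39% lower. Over series and Rps27a classes these log2 fold changes ran from 3.94 (high Rps27a) to 8.57 (PZ47-PZ48) for Myog, from 5.68 (low Rps27a) to 6.42 (high Rps27a) for Mymk and from 3.75 (high Rps27a) to 5.49 (PZ47-PZ48) for Cdh15.

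Against Myod1 alone all 3 genes were higher too, and Cdh15 had the smallest fold change. The 110 pairs from 22 libraries had median totals of 14135.5 counts with both factors and 11136 with Myod1 alone, so that these pairs were not equal in depth. Myog had 1389 counts with both and 13 with Myod1 alone, at medians by library of 566 and 0 CPM. Mymk had 1667 and 26 counts, at medians of 647 and 0 CPM. Cdh15 had 460 and 89 counts, at medians of 251 and 54.3 CPM. Myog and Mymk were higher with both factors in 21 of 22 libraries each, and Cdh15 in 20 with 2 lower.

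By edgeR the log2 fold changes of cells with both factors over Myod1 alone were 6.55 ± 0.32 for Myog (adjusted p 1.4e-22), 5.90 ± 0.34 for Mymk (adjusted p 9.5e-20) and 2.06 ± 0.25 for Cdh15 (adjusted p 7.5e-09). All 3 passed, where 8.33% of 11643 genes passed, 6.15% higher and 2.18% lower. Myog, with 13 counts with Myod1 alone, entered the test through cells with both factors. With a caliper that kept closely matched pairs alone they were 7.95, 7.09 and 2.77, no smaller than with all pairs. When a cell needed 2 counts of Myod1 to be called, which left 4 libraries, Myog had 5.11 and Mymk 6.72, but Cdh15 had -0.10 with an adjusted p of 1 by edgeR.

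Whether both factors together gave more than the sum of their separate log2 changes was asked of 130 sets of 4 cells, 1 of each class, in 34 libraries. Their counts were 1585 of Myog with both, 13 with Myod1 alone, 31 with Mef2c alone and 2 with neither. Mymk had 1832, 66, 44 and 2 counts, and Cdh15 512, 114, 22 and 4 counts, in the same order. The interaction was 4.23 for Myog (p 0.10, adjusted p 0.57), 1.75 for Mymk (p 0.83, adjusted p 1) and 0.12 for Cdh15 (p 0.49, adjusted p 0.89) on the log2 scale, by edgeR. None of the 3 passed, 0 of them at an unadjusted p under 0.05, where 1.02% of 13102 genes passed, 0.771% above 0 and 0.244% below. DESeq2 on the same counts called 2 of them, Myog at 6.25 ± 1.33 (SE, adjusted p 0.00051) and Mymk at 4.32 ± 1.17 (adjusted p 0.011). With 2 to 4 counts of each gene in cells with neither factor, these interaction values rest on very few molecules. Neither their size nor their sign is read as a result. The sets held 2750077, 1997360, 2638078 and 2454216 counts over all genes, in the same order of classes. Pooled over libraries by these totals, Mymk and Cdh15 showed no positive interaction, whereas Myog did, on 2 counts with neither factor. The 1 cell of technical replicate 3 gave 28 of the 66 Mymk counts with Myod1 alone, and without that library, a setting also chosen after seeing the data, the interaction of Mymk was 2.28 (adjusted p 0.94, edgeR). The estimate for Cdh15 also changed sign between settings, at -1.14 in the PZ47-PZ48 series alone, -0.018 in the libraries with low Rps27a and -0.056 without technical replicates 4 and 6.

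The share of cells with each gene went up with the number of Myod1 counts in the cell. Cells with 0, 1, 2, 3 to 4 and 5 or more counts of Myod1 numbered 8213, 187, 69, 44 and 52. Myog was found in 2.98, 13.4, 31.9, 54.5 and 67.3% of them. Mymk was found in 3.24, 19.3, 34.8, 63.6 and 71.2%, and Cdh15 in 3.42, 40.1, 71.0, 65.9 and 84.6%. Cdh15 was thus already found in 40.1% of cells at a single Myod1 count, and its shares at 2 and at 3 to 4 counts did not differ beyond their counting intervals (58.8 to 81.3% and 50.1 to 79.5%). The levels were 6.36, 86.2, 292, 360 and 717 CPM for Myog, 8.23, 95.2, 403, 401 and 827 CPM for Mymk and 4.85, 73.3, 161, 143 and 205 CPM for Cdh15.

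Depth did not match across these bins, with median totals of 8412, 11677, 14173, 13575.5 and 18524.5 counts. Thinned to 3000 counts a cell, Myog was in 1.44, 10.4, 28.4, 47.7 and 59.6% of cells, Mymk in 1.30, 14.3, 32.8, 56.8 and 65.4% and Cdh15 in 1.37, 19.2, 35.8, 38.6 and 51.9%. Cells without Myod1 that were matched to the 4 upper bins on total counts had Myog in 3.21, 4.35, 2.27 and 0%, the last being 0 of 52 cells, which at the same floor allows a share of cells with a count of up to 5.77%. They had Mymk in 4.81, 2.90, 6.82 and 9.62% and Cdh15 in 2.67, 7.25, 9.09 and 1.92%. The matched cells therefore stayed low at every depth, and the higher shares at more Myod1 counts were seen at equal depth in all 3 genes.

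**Figure D3:**
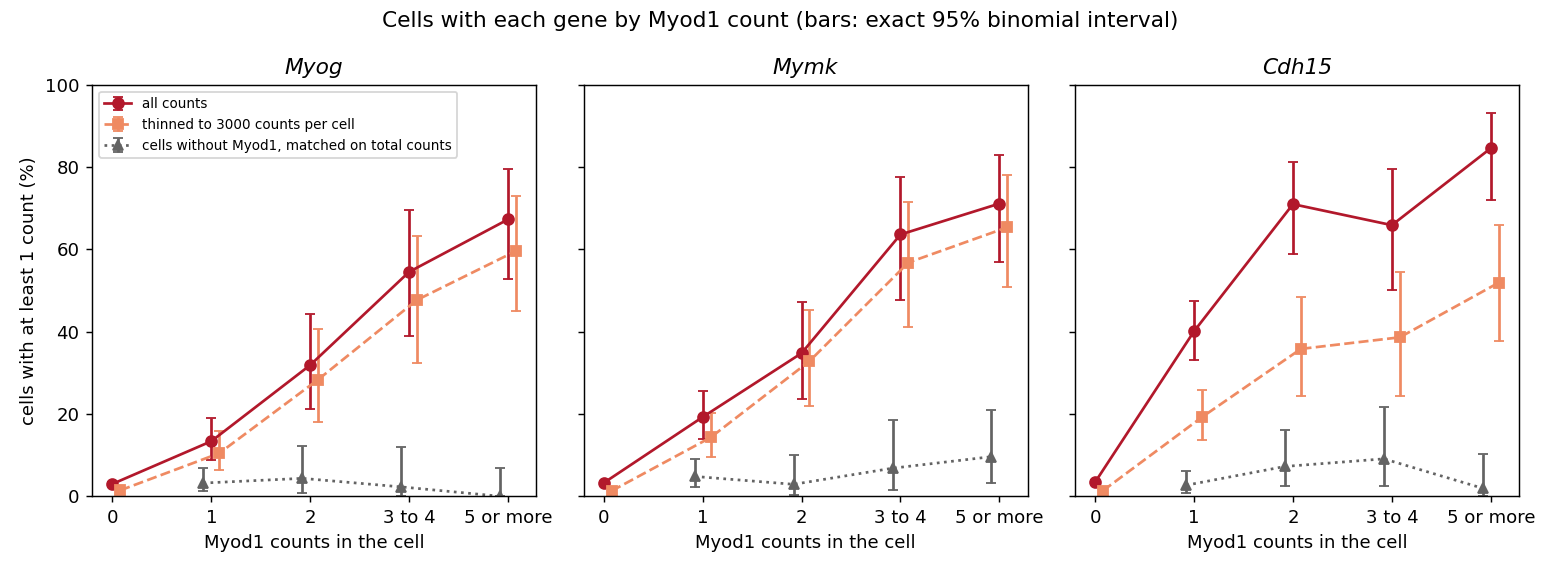
Share of cells (%) with at least 1 count of Myog, Mymk or Cdh15 by the number of Myod1 counts in the cell, with all counts, after thinning to 3000 counts a cell, and in cells without Myod1 matched on total counts; bars are exact 95% binomial intervals that cover counting error alone. Shares with all counts reach 67.3, 71.2 and 84.6% at 5 or more Myod1 counts, while the matched cells without Myod1 stay at or below 9.62%.

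Cells with 2 or more counts of Myod1 were set against cells with 1 count in 131 pairs from 32 libraries, with median totals of 15172 counts at 2 or more and 12012 at 1. Myog had 1747 counts at 2 or more and 211 at 1, Mymk 2271 and 210, and Cdh15 653 and 159. Myog was higher at 2 or more in 28 libraries and lower in 2, Mymk higher in 26 and lower in 3, and Cdh15 higher in 27 and lower in 4. The log2 fold changes were 3.50 ± 0.40 for Myog (adjusted p 1.8e-09), 3.54 ± 0.36 for Mymk (adjusted p 7e-11) and 1.75 ± 0.23 for Cdh15 (adjusted p 3.5e-08), by edgeR. All 3 passed, where 6.43% of 12141 genes passed and 4.54% were higher. In JD, PZ47-PZ48 and PZ58 the values were 3.20, 3.96 and 3.76 for Myog and 3.41, 3.70 and 3.74 for Mymk, which missed the threshold in PZ58 (adjusted p 0.12, edgeR). Cdh15 had 1.89, 2.13 and 1.00 and missed it in PZ58 as well (adjusted p 0.84, edgeR). Mef2c itself went with the Myod1 counts. Of all cells with 1, 2 and 3 or more Myod1 counts, 71, 48 and 79 held Mef2c and 116, 21 and 17 did not. The part of Mef2c in this comparison was not tested here.

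Split by Mef2c, the series with Myod1 counts looked different. In cells that also held Mef2c, with 1, 2 and 3 or more Myod1 counts (71, 48 and 79 cells), Myog was found in 25.4, 43.8 and 72.2%, Mymk in 38.0, 47.9 and 77.2% and Cdh15 in 46.5, 77.1 and 79.7%. In cells without Mef2c (116, 21 and 17 cells), Myog was found in 6.03, 4.76 and 11.8%, Mymk in 7.76, 4.76 and 23.5% and Cdh15 in 36.2, 57.1 and 58.8%. At 3 or more Myod1 counts the intervals of Myog, 60.9 to 81.7% with Mef2c and 1.46 to 36.4% without, did not overlap. Those of Mymk, 66.4 to 85.9% and 6.81 to 49.9%, did not overlap either, while those of Cdh15, 69.2 to 88.0% and 32.9 to 81.6%, did. These intervals cover counting error alone, over cells pooled from libraries of 1 culture. The cells with 3 or more Myod1 counts were not matched on depth, with median totals of 17355 counts with Mef2c and 15844 without. The split of the dose series was described and was not tested, and only 17 cells without Mef2c, from 12 libraries, held 3 or more Myod1 counts.

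Myog, Mymk and Cdh15 were found together mainly in cells with both factors. All 3 were detected in 77 of 198 cells with both factors (38.9%), in 1 of 154 with Myod1 alone (0.649%), in 26 of 2033 with Mef2c alone (1.28%) and in 8 of 6180 with neither (0.129%). None of the 3 was detected in 43, 81, 1787 and 5770 cells of these classes. Cdh15 without Myog and Mymk was seen in 34 cells with both factors (17.2%), 50 with Myod1 alone (32.5%), 69 with Mef2c alone (3.39%) and 128 with neither (2.07%). Among cells with exactly 1 of the 3 genes these were 34 of 47, 50 of 59, 69 of 182 and 128 of 372. Except with both factors, that combination was the most common in every class among cells with any of the 3 genes.

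**Figure D4:**
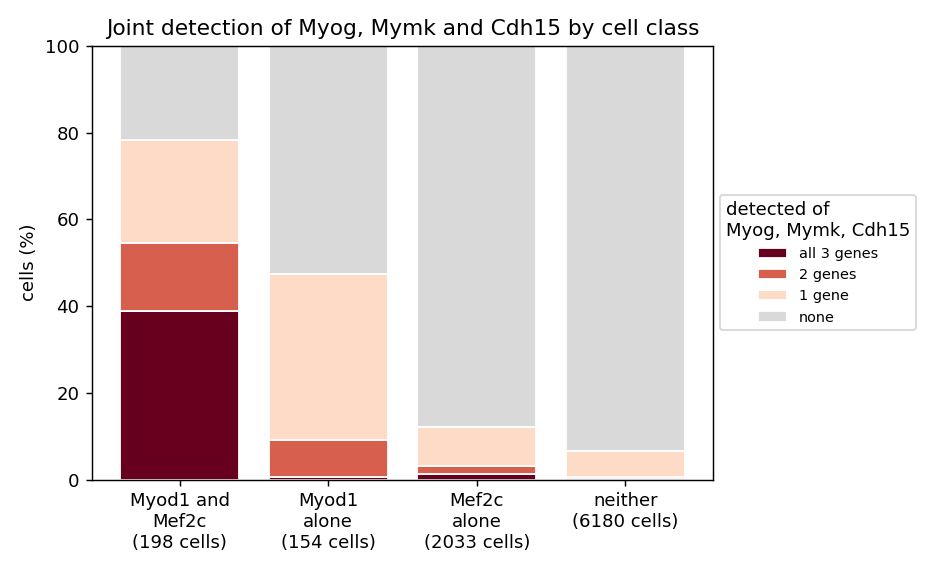
Share of cells (%) in which all 3, 2, 1 or none of Myog, Mymk and Cdh15 were detected, by cell class. The darkest segment, all 3 genes, takes 38.9% of cells with Myod1 and Mef2c and at most 1.28% in the other classes.

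Within cells with both factors the genes went together. Of 96 cells with Myog, 86 held Mymk (89.6%), against 25 of 102 cells without Myog (24.5%). Of the same 96 cells 84 held Cdh15 (87.5%), against 49 of 102 without Myog (48.0%). With Myod1 alone, 1 of 10 cells with Myog held Mymk and 5 held Cdh15, and of 64 cells with Cdh15, 10 held Mymk and 5 held Myog. With Mef2c alone, 36 of the cells with Myog held Mymk (35.6%), against 76 of 1932 cells without it (3.93%). These are shares of cells that share libraries and differ in depth, given as a description.

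Over all 8565 cells and 14286 genes with at least 100 counts, the genes whose log2 levels per 10000 counts went most like those of Myog were Adora1, an adenosine receptor, with a Pearson r of 0.760, Mybph, a myosin-binding protein, with 0.759, Arpp21 with 0.702, Tnnt3, a fast troponin T, with 0.695 and Mylpf, a fast myosin light chain, with 0.693. For Mymk they were Actn2 (0.763), the alpha-actinin of the Z-disc, Tnni1 (0.747), Adora1 (0.746), Mybph (0.744) and Mylpf (0.744). For Cdh15 they were Smyd1 (0.592), a muscle methyltransferase, Tnnt1 (0.591), Adora1 (0.573), Actn2 (0.564) and Mybph (0.558). Among the members, r was 0.690 between Myog and Mymk, 0.546 between Myog and Cdh15 and 0.567 between Mymk and Cdh15. The cells share libraries and depth, and these r are a description. Adora1 and Mybph lie 54557 and 88756 bases from Myog on chromosome 1, at 134199223 to 134235431 on the minus strand and at 134193448 to 134201232 on the plus strand. Since they overlap each other, their counts, 2859 in 380 cells and 2803 in 317 cells, cannot be told apart without strand.

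Of 34 other genes with a part in myoblast fusion or adhesion, 29 were tested in cells with both factors against matched cells with neither, 10 were higher and 4 lower. Over all genes 9.49% were higher and 5.82% lower. The median log2 fold change of those tested was 0.00077, against 0.0086 over all 13161 genes. Mymx (myomixer), the partner of Mymk in fusion, rose by 6.74 ± 0.28 on the log2 scale (adjusted p 1.3e-26, edgeR). Cav3, the muscle caveolin, rose by 5.61 ± 0.37, Cd36, a fatty acid receptor with a part in fusion, by 4.72 ± 0.36 and Tmem182 by 5.44 ± 0.47. Smaller rises were those of the adhesion molecules Jam2 (1.66) and Jam3 (1.28), the co-receptor Cdon (1.09), the laminin receptor subunit Itga7 (1.90), the membrane repair protein Dysf (0.69) and the transcription factor Nfatc2 (2.19). The annexins Anxa1 (-1.08) and Anxa5 (-0.81), the nephrin-like Kirrel (-0.91) and the GTPase Rac1 (-0.36) were lower. Of the cadherins, N-cadherin (Cdh2) had a log2 fold change of 0.07 ± 0.25 (adjusted p 0.93, edgeR) beside the 5.84 of Cdh15.

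With Myod1 alone, 0 of 24 tested fusion genes passed by edgeR, 5 had an unadjusted p under 0.05, and DESeq2 called 1 of the 12 to which it gave an adjusted p. Since 1.18% of all 11352 genes passed there, 0 of 24 lies near the general share. With Mef2c alone 4 of 32 rose, Mymx by 1.99 ± 0.45 (adjusted p 0.010), Cd36 by 2.80 ± 0.43, Nfatc2 by 2.04 ± 0.50 and Cd81, a tetraspanin, by 0.17 ± 0.04 on the log2 scale. Of all 16241 genes 1.34% were higher with Mef2c alone. Cells with both factors had 9 of 29 higher and 2 lower than Myod1 alone, with Mymx at 6.37 ± 0.35. Over all genes 6.15% were higher and 2.18% lower. The interaction called 0 of 29 by edgeR, with 8 at an unadjusted p under 0.05 and 2 called by DESeq2. By edgeR it called 1.02% of all 13102 genes, so that 0 of 29 is near the general share.

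Genes of early muscle differentiation, many of which Myog is known to act on, were higher in all 3 comparisons with cells of neither factor, though not every gene in each. Of all genes tested, 9.49% were higher with both factors, 0.951% with Myod1 alone and 1.34% with Mef2c alone. All 40 rose in cells with both factors, with a median log2 fold change of 6.10, and the smallest p belonged to Ttn (titin, 8.24 ± 0.21), Mybph (7.99 ± 0.20), Tnnc2 (a fast troponin C, 8.09 ± 0.22) and Actn2 (7.96 ± 0.20). With Myod1 alone 14 of 23 tested genes rose, the other 17 of the 40 having too few counts for the test, so that this count is not one over the whole list. Among them were Des (desmin, 2.41 ± 0.32), Tnnt1 (a slow troponin T, 2.58 ± 0.34) and Casq2 (a calsequestrin, 3.62 ± 0.50). With Mef2c alone 25 of 39 rose, at a median of 1.54 over those tested, among them Actn2 (2.92 ± 0.29), Mylpf (2.45 ± 0.27) and Mybph (2.83 ± 0.34). The interaction called 6 of 40, Acta1 (4.47), Myh3 (7.06), Mylpf (5.08), Myl4 (3.22), Tnnt3 (4.38) and Tnnt1 (2.89), all above 0, where DESeq2 called 19 of the 33 to which it gave an adjusted p. By edgeR the interaction called 0.771% of all genes above 0. The size of these values did not follow their p, with Chrnd at 2.77 (p 0.83) and Musk at 2.97 (p 0.81) by edgeR. Myh3, the largest of the 6, was found in only 5 cells with Myod1 alone. The sizes of interactions are therefore not read as results, here or in the lists below. The list was drawn up with earlier results of these data known and is no independent evidence of its direction.

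Of 14 genes of myogenic progenitors, 10 were tested with both factors, where 9.49% of all genes were higher and 5.82% lower. Chodl (2.94 ± 0.46), Eya2 (2.71 ± 0.53), Lbx1 (2.32 ± 0.61) and Eya4 (2.21 ± 0.29) were among those that rose, and none was lower. The Eya proteins act upstream of the bHLH factors in the embryo. The median of those tested was 1.141, against 0.0086 over all genes. Pax7, the satellite cell factor, was found in 1 cell with both factors, 0 with Myod1 alone, 2 with Mef2c alone and 2 with neither. Pax3, its relative in the early myotome, was found in 5, 1, 32 and 34 cells, or 2.53, 0.649, 1.57 and 0.550%. With Myod1 alone Chodl rose (2.45 ± 0.55) of 5 tested, and with Mef2c alone Eya1 (0.45 ± 0.13) of 11. The shares of all genes that were higher were 0.951% with Myod1 alone and 1.34% with Mef2c alone.

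Among 17 tested partners and inhibitors of the bHLH factors, 4 were higher and 3 lower with both factors. The shares over all genes were 9.49% higher and 5.82% lower. Hes6, known to promote myogenic differentiation, rose by 3.63 ± 0.21 (adjusted p 2.9e-20, edgeR), and Zeb1, a zinc finger repressor, by 0.61 ± 0.16, beside Bhlhe41 (1.23) and Id2 (0.72). Snai2 (-1.03 ± 0.20), Twist2 (-0.98 ± 0.25) and Twist1 (-0.74 ± 0.23), factors of mesenchymal cells, of which Twist1 is known to restrain Myod1, were lower. With Myod1 alone Hes6 (1.76 ± 0.26) and Id2 (1.144 ± 0.24) rose of 17 tested, where 0.951% of all genes were higher. The interaction of Hes6 was 2.08 on the log2 scale (adjusted p 0.0012, edgeR).

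Of 16 cell cycle genes tested with both factors, Ccnd3 (1.22 ± 0.13), a cyclin D kept in differentiating muscle, Rb1 (1.32 ± 0.22), the retinoblastoma protein, and the inhibitor Cdkn1c (1.63 ± 0.32) rose, and the cyclins Ccnd1 (-0.94 ± 0.17) and Ccnd2 (-0.72 ± 0.15) were lower. Over all genes 9.49% were higher and 5.82% lower with both factors. With Myod1 alone Ccnd3 rose (0.51 ± 0.13) and Ccnb1 was lower (-1.45 ± 0.38), and with Mef2c alone Myc was lower (-0.26 ± 0.07). Of all genes 0.951% were higher and 0.229% lower with Myod1 alone, and 0.53% were lower with Mef2c alone. The interactions of Rb1 (1.52, adjusted p 0.016) and Ccnd3 (0.92, adjusted p 0.030) passed by edgeR, where 1.02% of all genes passed.

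**Figure D5:**
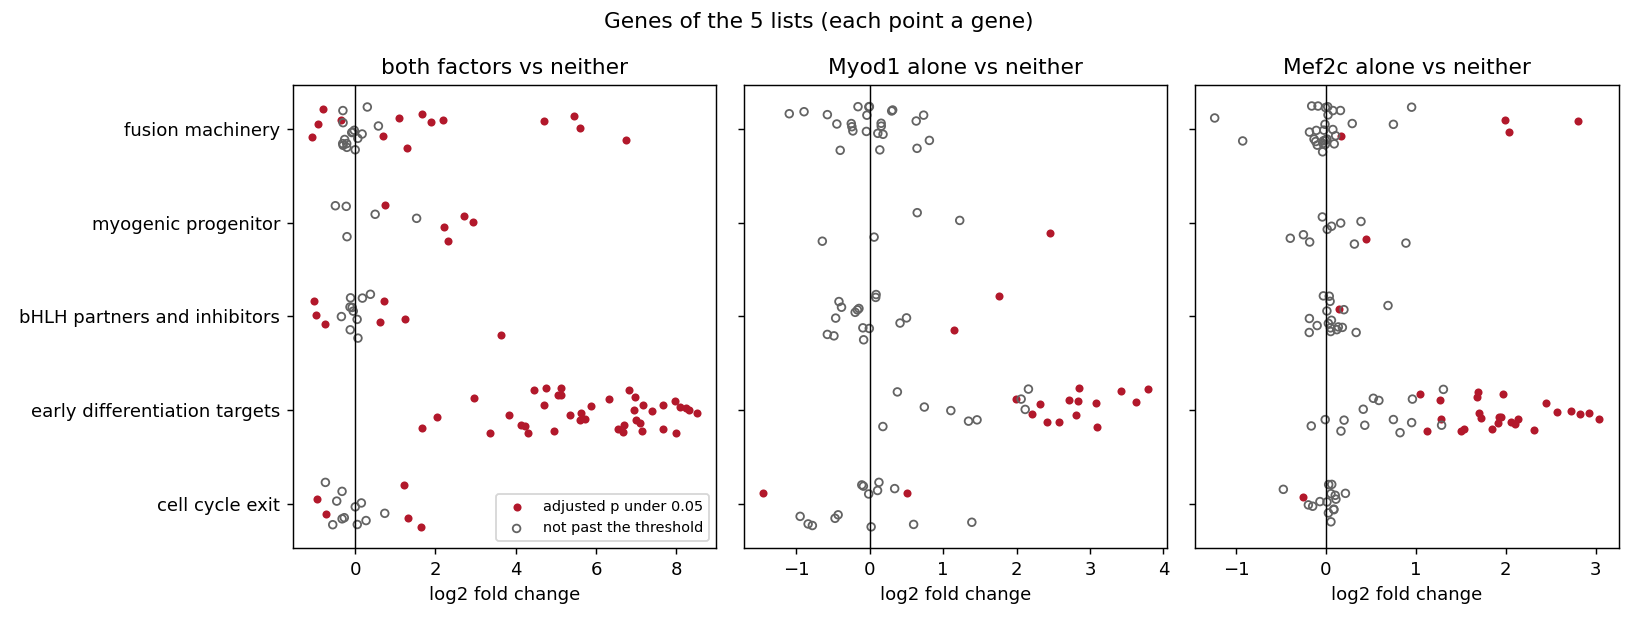
Log2 fold change of the tested genes of 5 lists in cells with both factors, with Myod1 alone and with Mef2c alone, each over matched cells with neither; each point is a gene, filled where the adjusted p is under 0.05. All 40 early differentiation genes are filled and above 0 with both factors, against 14 of 23 with Myod1 alone and 25 of 39 with Mef2c alone, while most fusion genes lie near 0. Over all genes 9.49, 0.951 and 1.34% were higher in the same order.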

How the data were processed

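The authors deposited 37 tables of raw counts, not normalized, each with 27999 gene rows and a column for every cell barcode. Per the submitters' processing notes the tools were bcl2fastq 2.17.1.14, STAR 2.5.3a, UMI-tools and featureCounts 1.5.3, and the build mm10. The strand setting, annotation release and cell filter are not given in the sources used here. Of the rows, 27645 matched a symbol, and the EGFP row held 0 counts and stayed out. Every column was mapped to its sample, with 0 columns of other samples.

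Of barcodes found in several libraries (89) or 1 base from another in the same library (76), 165 in all, the copies with fewer counts were removed. Doublets were not called. Instead, an alternative left out the deepest 5% of cells of each library. Cells were matched 1 to 1 on total counts within each library, in libraries with at least 3 pairs (1 pair for Myod1 count numbers and for the interaction), and summed per library and class. Genes with at least 20 counts entered edgeR 4.0.16 (quasi-likelihood test; R 4.3.3, limma 3.58.1) with TMM scaling and Benjamini-Hochberg adjustment at 0.05. The library was the block, since both cell sets of a pair come from the same library, per the labels. SEs are the log2 fold change divided by the square root of F, and none is given for the interaction from edgeR. Such an SE is smaller than counting error where a cell set held few counts. DESeq2 1.42.0 was an alternative. Levels, thinning and exact intervals (95%, counting error only) used Python 3.11.15, numpy 2.4.6, scipy 1.17.1 and pandas 2.3.3, and counts of 0 were given a floor of 3 counts. The edgeR fits were also run on simulated counts in which genes with many counts were raised by known amounts. The raised genes did not include any with few counts, such as the members in cells with neither factor.

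The genes named are the 5 members, the 4 genes with the smallest p of each list, further genes of the fusion and progenitor lists, and the 5 genes most like each member. Genes named beyond these, from the remaining lists and comparisons, were chosen after their values were seen. A gene of the progenitor list is not reported here. The members and lists were chosen with earlier results of these data known.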

Additional observations from a re-analysis of the deposited data

How the results depend on the processing

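Over 295 alternatives of 21 member results, 274 kept direction and side of the threshold, 12 lost the call, 5 gained it and 4 changed sign, and 3 had no adjusted p from DESeq2. The calls lost were those within single series or Rps27a classes, which hold fewer libraries. The log2 fold change of Cdh15 with both factors over Myod1 alone was -0.10 when 2 Myod1 counts were needed, and its interaction was -1.14 in PZ47-PZ48 alone, -0.018 with low Rps27a and -0.056 without technical replicates 4 and 6, the last 3 settings chosen after seeing the data; the cause was not tested.

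Without the library block (the pairing of cells by library), 2140 genes passed with both factors over neither, 179 with Myod1 alone, 261 with Mef2c alone, 2165 with both over Mef2c alone, 951 with both over Myod1 alone, 860 with 2 or more Myod1 counts over 1 and 152 in the interaction. Without the block Myog passed with Myod1 alone, at 2.60 (adjusted p 0.011, edgeR), and no other member call changed.

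Counts of genes past the threshold moved by over 1.5 times as follows, in the order of comparisons just given. In JD alone they were 842 with both factors over neither, 50 with Mef2c alone, 769, 437 and 432 in the next 3 comparisons and 27 in the interaction. In PZ47-PZ48 alone they were 916, 40, 75, 990, 262, 271 and 8, and in PZ58 alone 261, 0, 9, 245, 60, 16 and 6. With high Rps27a alone they were 481, 13, 38, 437, 229, 187 and 12, and with low Rps27a alone 176 with Mef2c alone and 41 in the interaction. Without matching they were 5007 with both factors over neither, 1113 with Myod1 alone, 1226 with Mef2c alone and 4411 with both over Mef2c alone. DESeq2 gave 79 with Myod1 alone and 320 in the interaction. With 2 Myod1 counts needed they were 44 with Myod1 alone and 53 with both over Myod1 alone. With all genes of at least 1 count they were 251 with Myod1 alone, 594 with Mef2c alone and 260 in the interaction. With closely matched pairs alone (a caliper on the ratio of totals) they were 345 with both over Myod1 alone, 443 with 2 or more Myod1 counts over 1 and 51 in the interaction. The settings without matching, with 2 Myod1 counts needed and with another minimum of pairs were not run for the interaction. Myf5 and Myf6 had too few counts for a test, and the interaction rests on few counts.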
